A study of Mus musculus with 2 samples.

Results

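The genes described here encode the TATA-binding protein TBP and its relative TBPL1, the TBP-associated factors (TAFs), and the general transcription factors TFIIA, TFIIB, TFIIE, TFIIF, TFIIIA and TFIIIC. They were chosen by a rule on symbols, set with earlier results of these data known. It takes Tbp, Tbpl1, every gene named Taf followed by a number except Taf1d, and every gene whose symbol starts with Gtf2a, Gtf2b, Gtf2e, Gtf2f or Gtf3. The array held 39 such genes of 18193 named genes, on 65 of 45037 probe sets. A probe set is a group of short oligonucleotides that read the 3′ part of 1 transcript. Taf9 was not among them, because its 3 probe sets are each annotated to another gene as well. In the series, primary mouse T cells received anti-CD3/CD28 antibodies alone or the same antibodies and triptolide at 50 ng/ml, which is a plant diterpenoid that binds the XPB helicase of the general factor TFIIH. Cells of both groups were cultured for 18 h. Each group was 1 sample on 1 array. The sources used here do not give the time with triptolide, the strain and age of the mice, or how many mice gave the cells.

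Transcription by RNA polymerase II starts when TFIID, made of TBP and TAFs, binds the core promoter. TFIIA and TFIIB join it, TFIIF arrives with the polymerase, and TFIIE brings in TFIIH, which opens the DNA. TBP also works outside TFIID: with the TAFs of the SL1 complex it serves RNA polymerase I at ribosomal RNA genes, and within TFIIIB it serves RNA polymerase III, after TFIIIA and TFIIIC have marked the 5S ribosomal RNA and tRNA genes. Some TAFs also belong to SAGA, a coactivator complex that acetylates histones.

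The ends of the range of ratios were held by Taf13 and Taf12 on the higher side and by the SL1 genes Taf1a and Taf1b on the lower side, so their own promoter windows are shown first. Each window is from RefSeq (build GRCm38.p6) and runs from 250 bases before to 50 bases after an annotated transcript start. Sequences are written 5′ to 3′ on the gene's strand, which was the plus strand for all 4. The windows lie at chr3:108571449-108571748 (Taf13), chr4:132274125-132274424 (Taf12), chr1:183388635-183388934 (Taf1a, the first listed of its 2 windows) and chr12:24498331-24498630 (Taf1b). Capitals mark matches on either strand to TATAAA (the TATA box core that TBP binds), CCAAT (the box bound by NF-Y), CCGGAAG (a core that ETS family factors bind) and CACGTG (the E-box that MYC and related factors bind). None of these matches overlap one another.
Taf13: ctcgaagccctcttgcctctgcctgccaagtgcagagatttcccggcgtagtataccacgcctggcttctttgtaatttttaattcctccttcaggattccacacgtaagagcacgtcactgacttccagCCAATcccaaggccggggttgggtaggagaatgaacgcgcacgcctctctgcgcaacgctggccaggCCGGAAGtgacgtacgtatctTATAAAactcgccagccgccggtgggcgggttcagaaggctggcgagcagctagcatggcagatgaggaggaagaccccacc
Taf12: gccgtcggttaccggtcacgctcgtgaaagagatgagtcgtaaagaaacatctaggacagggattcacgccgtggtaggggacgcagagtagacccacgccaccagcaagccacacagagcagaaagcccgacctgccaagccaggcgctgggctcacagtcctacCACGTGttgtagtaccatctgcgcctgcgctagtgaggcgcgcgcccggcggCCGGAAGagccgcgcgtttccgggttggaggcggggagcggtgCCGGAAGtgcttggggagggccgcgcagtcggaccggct
Taf1a: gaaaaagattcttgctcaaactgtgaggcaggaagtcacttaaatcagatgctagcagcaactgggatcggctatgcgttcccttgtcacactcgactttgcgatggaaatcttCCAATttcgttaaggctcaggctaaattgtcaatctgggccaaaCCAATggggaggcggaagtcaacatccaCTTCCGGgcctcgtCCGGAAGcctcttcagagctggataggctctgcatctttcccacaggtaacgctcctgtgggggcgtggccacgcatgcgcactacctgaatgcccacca
Taf1b: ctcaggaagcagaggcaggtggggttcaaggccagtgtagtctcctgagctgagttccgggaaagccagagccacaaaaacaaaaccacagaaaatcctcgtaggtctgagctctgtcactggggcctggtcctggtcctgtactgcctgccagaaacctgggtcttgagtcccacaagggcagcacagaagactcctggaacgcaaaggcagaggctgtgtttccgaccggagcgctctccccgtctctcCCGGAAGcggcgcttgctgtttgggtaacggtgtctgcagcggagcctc
The Taf13 window holds TATAAA, with its first base 32 bases before the start, and the Taf12, Taf1a and Taf1b windows do not. All 4 hold CCGGAAG, the higher and the lower genes alike. Of 32 detected genes of the set with a window, 7 (21.9%) held TATAAA, 12 (37.5%) CCAAT, 17 (53.1%) CCGGAAG and 8 (25%) CACGTG. Among 8907 detected genes of the array with a window the shares were 8.71%, 42.6%, 20.8% and 12%, and over all 32851 windows they were 13.6%, 37.4%, 8.86% and 7.15%. The plan named only TATAAA and CCAAT, and CCGGAAG and CACGTG were added to these. A match of letters is a description and not a binding site.

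All values are MAS5 signals, a linear intensity computed by the authors, and log2 ratios are triptolide minus stimulated. Each condition has 1 array, so no test was possible and differences are described by size only. Signals under a background floor of 118 were set to it. The floor was the 95th percentile of 87 probe sets of odorant, taste and related receptor genes. A gene counted as detected if either array exceeded the floor, and it is represented by its brightest probe set. Technical error was judged from how far 2 probe sets of a gene disagreed: over 3733 genes their robust SD was 0.39 (log2) per probe set. Where the dimmer of them reached 4 times the floor it was 0.30, and elsewhere 0.52. Both probe sets were read on the same 2 arrays, so this spread does not cover an error common to a whole array. It does not cover variation between cultures or mice either, and it includes differences between the transcripts that the probe sets read. All 10968 detected genes together had a median log2 ratio of -0.16, against which the ratios below should be read.

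Of the 39 genes, 36 were detected, 34 of them on both arrays. Taf3 passed only through the triptolide array and Taf1a only through the stimulated array, so these could differ in 1 direction only. Gtf2a1l (signals of 49.4 and 10.9), Taf7l (80.4 and 76.8) and Taf7l2 (19.0 and 4.1) were under the floor on both arrays. Gtf2a1l and Taf7l are paralogs best known from germ cells. With triptolide, 4 of the 36 (11.1%) had a signal at least 2-fold higher, and 3 (8.33%) had a signal at least 2-fold lower. The same rule called 5.63% of all detected genes higher and 12.5% lower. Log2 ratios were above 0 in 24 (66.7%) of the 36, against 39.8% of all detected genes. A signal at least 1.5-fold higher was seen for 12 genes (33.3%), against 13.4% of all detected genes. This cut was counted over all genes on the higher side only. On the lower side, Tbp, Taf5l, Gtf3c4, Gtf3c5, Gtf2e2, Taf1a and Taf1b were at least 1.5-fold lower. The lower quartile of all detected genes (-0.62) was itself beyond 1.5-fold, so drops of this size were common over the array. The median log2 ratio of the 36 genes was 0.32, with quartiles of -0.12 and 0.73, and over all detected genes the quartiles were -0.62 and 0.27. Under the 4 other scalings of the arrays, 22 of the 36 kept a ratio above 0 and 8 a ratio below 0. The other 6 (Gtf3c1, Taf4, Taf5, Taf7, Taf11 and Taf15) changed sign with the scaling, so they have no settled direction. A sign kept under all scalings does not settle a direction either, because scaling does not show whether probe sets of a gene agree. Gtf3c2, among the 22, had probe sets on both sides of 0.

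**Figure D1:**
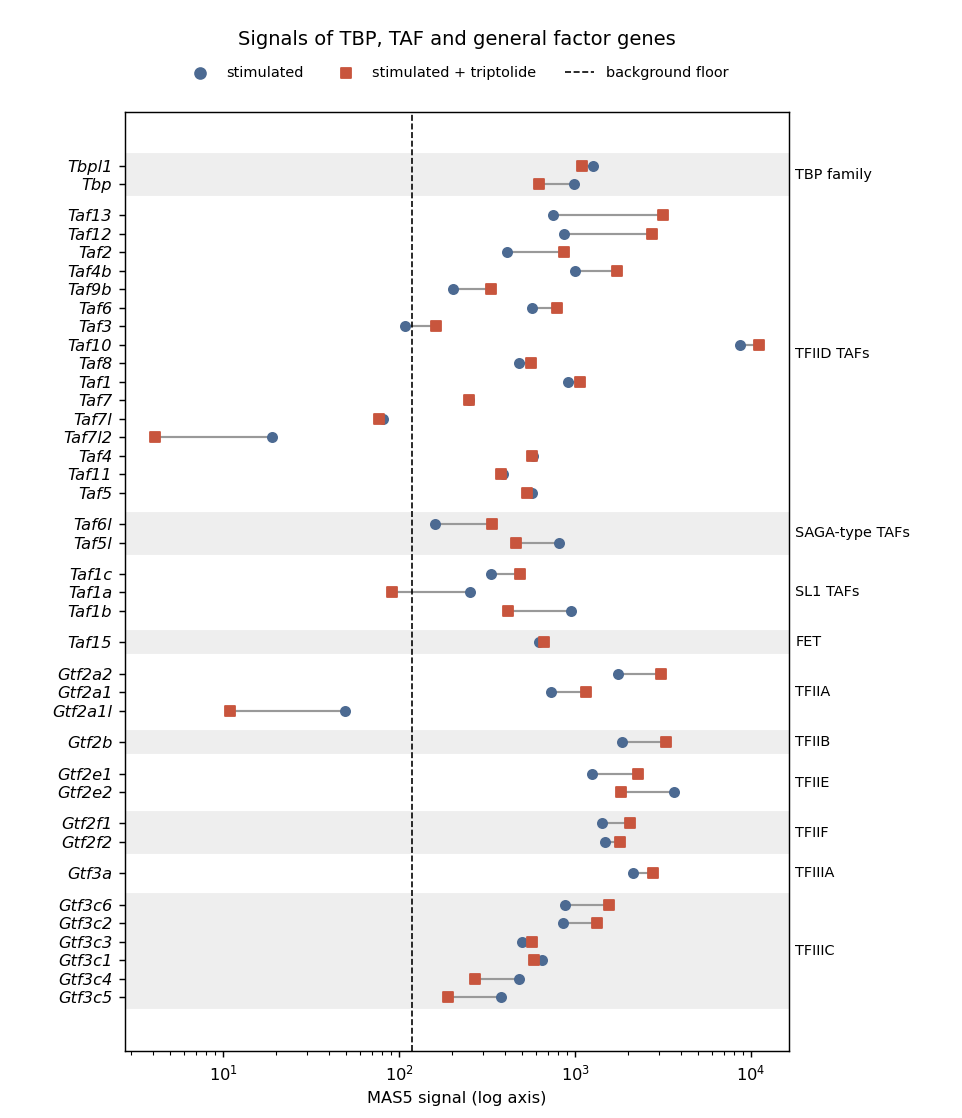
MAS5 signal of the representative probe set of each of the 39 genes on a log axis, by complex. Circles are the stimulated array, squares the array with triptolide, and the dashed line is the floor of 118. Taf13 and Taf12 show the widest shifts to the right among detected genes, and 3 genes lie under the floor on both arrays.

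**Figure D2:**
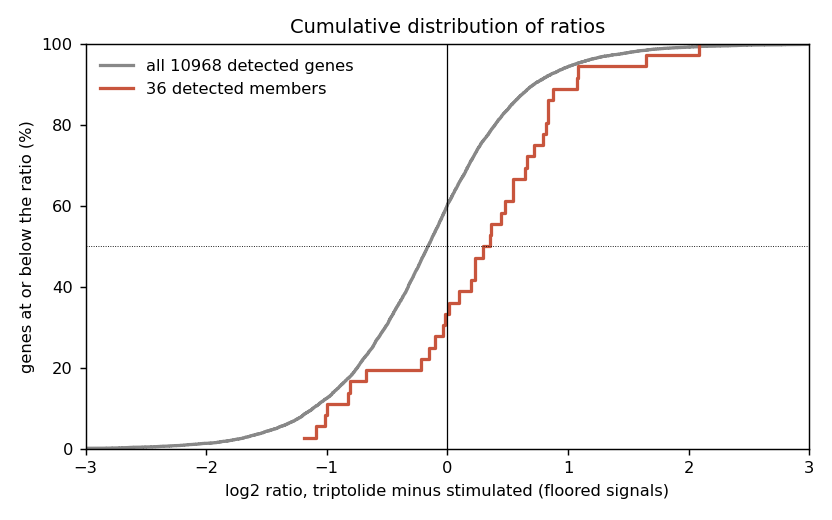
Cumulative share of genes (%) against the log2 ratio, triptolide minus stimulated, for all 10968 detected genes and for the 36 detected genes of the set. The curve of the set lies to the right through its middle, with medians of 0.32 and -0.16.

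In TBP itself, the subunit that binds the TATA box, the signal was 988 without and 620.0 with triptolide, a log2 ratio of -0.67 (1.59-fold lower). It rests on 1 probe set, shared between transcripts, since the second was under the floor on both arrays (28.1 and 13.7). Under all scalings the ratio of Tbp stayed below 0, between -0.85 and -0.47. Tbpl1, a TBP relative that does not bind the TATA box, had signals of 1271 and 1089.7 (log2 ratio -0.22), and its second probe set had 326 and 223 (-0.55). Both TBP family genes thus had lower signals with triptolide, each within 2-fold, and Tbpl1 lay close to the median of all genes.

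Among the 14 detected TAF genes of TFIID, 3 were at least 2-fold higher, none was lower by that much, and ratios above 0 were seen in 11. Over all detected genes these shares were 5.63%, 12.5% and 39.8%. With 14 genes, the absence of a lower call says little. The 11 include Taf7, at 0.01, whose sign changed with the scaling. Taf13, which pairs with TAF11 through histone folds next to TBP, had a signal of 745 on the stimulated and 3172 on the triptolide array. That is 4.25-fold higher, a log2 ratio of 2.09, and 72nd from the highest of 10968 genes. Taf12, which pairs with TAF4 and is also a SAGA subunit, had signals of 868 and 2718 (3.13-fold higher, log2 ratio 1.65). Each of these 2 genes has a single probe set, and each ratio was several times the robust SD between probe sets. Taf2, a subunit that contacts the initiator element, had signals of 412 and 869 (2.11-fold higher), while its dimmer second probe set had 124 and 164 (log2 ratio 0.40).

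Taf4b, a paralog of Taf4 enriched in gonads and in some lymphoid cells, was higher on all 3 of its probe sets. Their signals were 994 and 1722, 631 and 1260.4, and 177 and 386, and their log2 ratios were 0.793, 0.998 and 1.124. Taf4 itself, a scaffold of TFIID, differed between its probe sets. The brighter one, which is shared between transcripts, had signals of 577 and 571 (-0.02), and the other had 371 and 197 (-0.92), so no direction is given for Taf4. Taf9b, a paralog of Taf9, had signals of 201 and 330.5 (0.71). Taf6, the histone fold partner of TAF9, had 566 and 789 (0.48).

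The remaining TFIID genes were within 2-fold on every detected probe set. Taf10, a subunit shared with SAGA, had signals of 8657 and 11043 (log2 ratio 0.35) and a second probe set at 279 and 532 (0.93). Taf3, whose PHD finger reads trimethylated histone H3 lysine residues at active promoters, had 107 and 161, with the first under the floor, so its fold of 1.36 is a lower bound. Taf1, the largest subunit, had 914 and 1070.0 (0.23), and Taf8, a partner of TAF10, had 479 and 563 (0.23). Taf7, which binds TAF1, had signals of 248 and 250 (0.01) on its brightest probe set and signals of 189 and 305 (0.69) on the next. Taf11 had 389.5 and 380.2 (-0.03), and Taf5, a WD40 repeat scaffold, had 572 and 532 (-0.10). On the brightest probe sets of Taf1, Taf5, Taf7, Taf8, Taf10 and Taf11 these differences from 0 were under the robust SD of 0.39. The second probe sets of Taf10 and Taf7 lay above it. For bright probe sets the robust SD was 0.30, which the 0.35 of Taf10 exceeded. Relative to the median of all detected genes, Taf10 was 0.51 higher and Taf8 and Taf1 were each 0.39 higher.

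**Figure D3:**
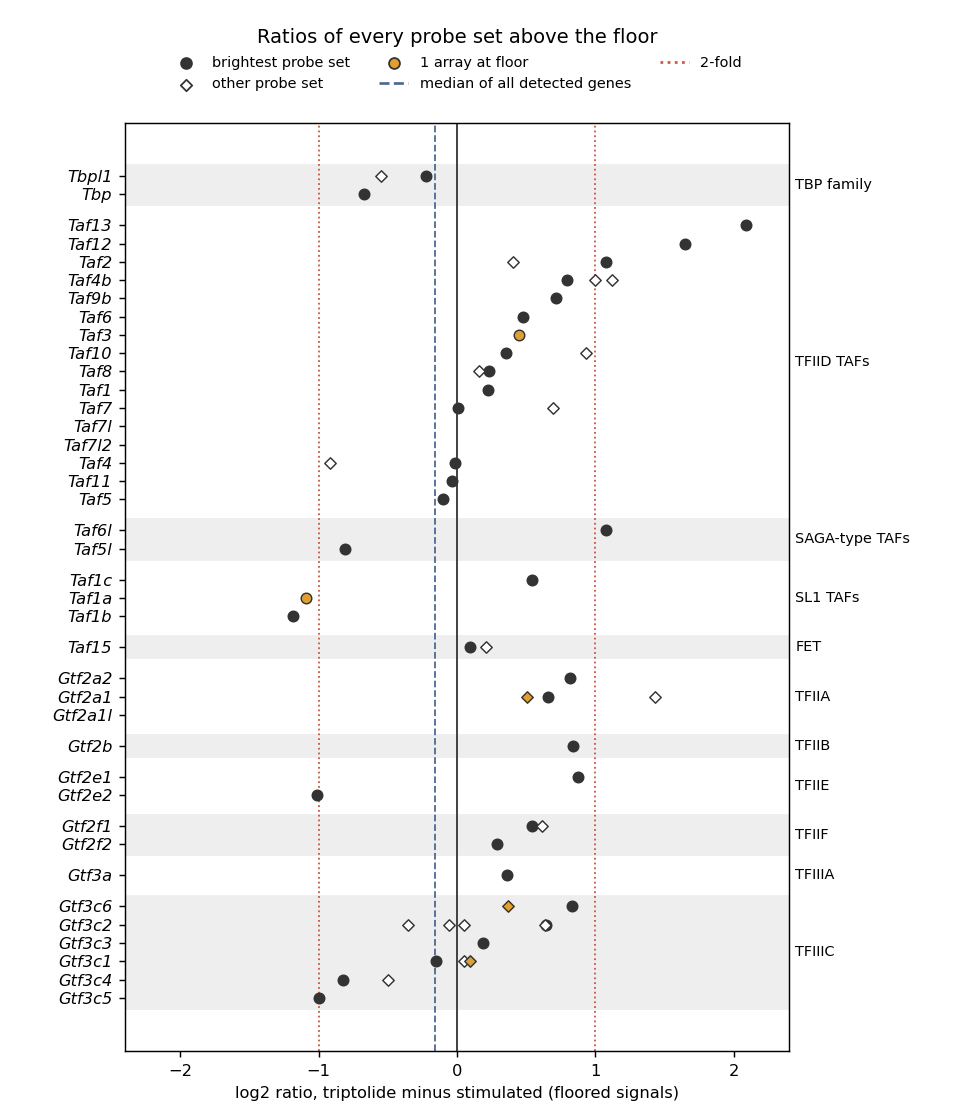
Log2 ratio, triptolide minus stimulated on floored signals, of every probe set above the floor on at least 1 array. Filled circles are the brightest probe set of a gene, diamonds its other probe sets, orange marks a probe set with 1 array at the floor, the dashed line is the median of all detected genes (-0.16) and dotted lines mark 2-fold. The 3 Taf4b probe sets lie together between 0.793 and 1.124, whereas those of Gtf3c2 span -0.35 to 0.64.

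The TAF genes outside TFIID differed among themselves. Taf1b, the TFIIB-like subunit of SL1, had signals of 942 and 414 (2.28-fold lower, log2 ratio -1.19) on its only probe set, which is shared between transcripts. Taf1a, another SL1 subunit, had 252 and 91.4, the latter under the floor, and was at least 2.13-fold lower. Taf1c, the third of them, had 333 and 486 (log2 ratio 0.55) on a probe set that is also marked as shared. Its name ends in _s_at and that of the Taf1b probe set in _a_at, and these kinds of sharing were not separated. The call of at least 2-fold for these genes depended on the scaling: after quantile normalization the log2 ratio was -0.90 for Taf1a and -0.97 for Taf1b. The SAGA-type TAF genes went opposite ways. Taf6l, a TAF6 paralog within SAGA, had signals of 160 and 337.5 (2.11-fold higher), near the floor on the stimulated array. Taf5l, the TAF5 paralog of SAGA, had 810.4 and 463 (log2 ratio -0.81). Taf15, an RNA-binding protein of the FET family that can join TFIID, had 623 and 665 (0.09).

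Of the 7 detected genes of TFIIA, TFIIB, TFIIE and TFIIF, 6 had a higher signal with triptolide and Gtf2e2 a lower one. All 6 were within 2-fold on the representative probe set as deposited. Over all detected genes, 39.8% had a ratio above 0. The 6 stayed above 0 under all scalings, and Gtf2e1 reached 1.05 after quantile normalization. Gtf2a1 and Gtf2a2 encode TFIIA, which steadies TBP on DNA. Gtf2a1 had a signal of 733 without and 1156 with triptolide (log2 ratio 0.66), and its other probe sets had 359 and 968.5 (1.43) and 113.5 and 169 (at least 1.42-fold, the first under the floor). Gtf2a2 had 1755 and 3090.1 (0.82). Gtf2b, the single-subunit TFIIB that links TBP to the polymerase, had 1837.5 and 3281 (0.84). Gtf2f1 and Gtf2f2, the TFIIF subunits, had 1417 and 2060.5 (0.54) and 1477 and 1809 (0.29), and the second probe set of Gtf2f1 had 1223 and 1874 (0.62). All 5 of these genes therefore had ratios above the median of all genes.

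The TFIIE subunit genes went opposite ways. Gtf2e1, the larger subunit, had signals of 1245 and 2279 (1.83-fold higher, log2 ratio 0.87). Gtf2e2, the smaller subunit, had 3655 and 1814 (2.02-fold lower, log2 ratio -1.01). Gtf2e1 has a second probe set under the floor on both arrays (49.5 and 74.2), and Gtf2e2 has 1 probe set. The encoded proteins work as a dimer.

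Differences between 2 genes on the same arrays do not contain the arrays' scaling factor. The log2 ratio of Gtf2e1 exceeded that of Gtf2e2 by 1.88. The ratio of Taf13 exceeded that of its histone fold partner Taf11 by 2.12. That of Taf12 exceeded that of its partner Taf4 by 1.66 with the brighter Taf4 probe set and by 2.56 with the other. The robust SD between probe sets corresponds to 0.56 for such a difference. By contrast, the Taf10 ratio exceeded that of its partner Taf8 by 0.12 (against Taf3, whose ratio is a bound, no difference is given), and the subunit genes of TFIIA and of TFIIF differed from each other by 0.16 and 0.25. Between paralogs, Taf4b exceeded Taf4 by 0.81 with the brighter Taf4 probe set and by 1.71 with the other, Taf6l exceeded Taf6 by 0.60, Taf5 exceeded Taf5l by 0.70 and Tbpl1 exceeded Tbp by 0.45.

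**Figure D4:**
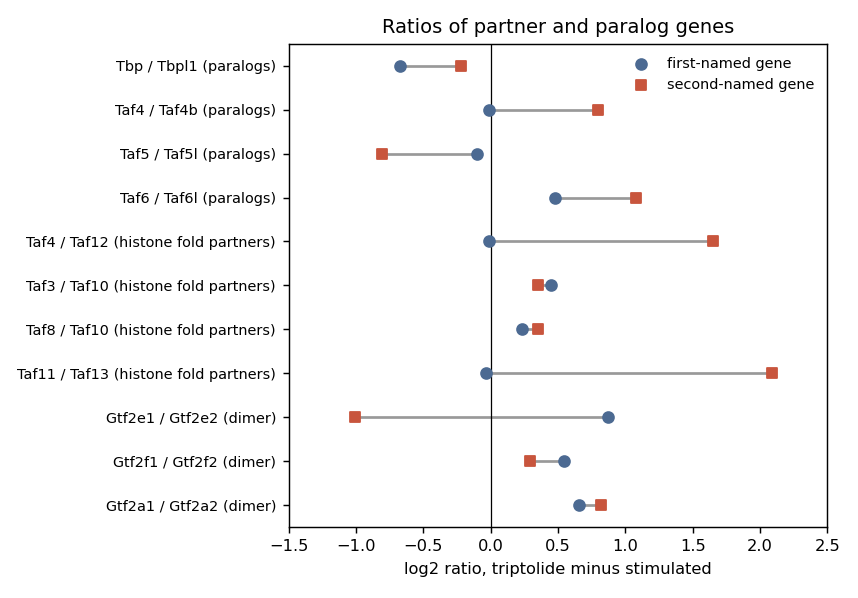
Log2 ratio, triptolide minus stimulated, of the first-named gene (circle) and the second-named gene (square) of 11 pairs of paralogs, histone fold partners and dimers, each on its representative probe set. Long bars join Taf11 and Taf13 (2.12), Gtf2e1 and Gtf2e2 (1.88), and Taf4 and Taf12 (1.66 on the probe set shown, 2.56 on the other Taf4 probe set); the Taf3 value is a lower bound.

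The RNA polymerase III factor genes were mixed, with none of the 7 at least 2-fold different as deposited, against 18.1% of all detected genes. Under other scalings Gtf3c5 reached -1.18 and Gtf3c4 -1.01 (centred on housekeeping genes), and Gtf3c6 reached 1.03 (quantile normalization). Gtf3a encodes TFIIIA, the zinc finger protein that binds 5S ribosomal RNA genes, and had signals of 2142.5 and 2753 (log2 ratio 0.36). In TFIIIC, which binds the internal promoters of tRNA genes, 3 genes had ratios above 0 and 3 below on their brightest probe sets. Gtf3c6 had 872 and 1556 (0.83). Its second probe set had 75.3, under the floor, and 153. Gtf3c5, part of the module that binds the A box, had 379 and 190.4 (1.99-fold lower), just inside 2-fold. Gtf3c4 had 476 and 269 (-0.82), with a second probe set at 240.3 and 170.1 (-0.50). Gtf3c3, which contacts TFIIIB, had 500.4 and 571.5 (0.19), and Gtf3c1, the largest subunit, had 647 and 583 (-0.15). The 5 probe sets of Gtf3c2 had log2 ratios of 0.64, -0.35, 0.05, -0.06 and 0.64 from the brightest to the dimmest, so no direction is given for it.

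Agreement between probe sets could be read in 13 genes of the set for which at least 2 probe sets exceeded the floor on each array. In 11 of them the brightest pair lay on the same side of 0, against 72.0% of all such genes. The absolute difference within the pair had a median of 0.33, ranging from 0.07 in Taf8 to 0.996 in Gtf3c2, and the median over all genes was 0.37. The 2 genes whose pair disagreed in sign were Gtf3c1 and Gtf3c2. Of the 7 genes called at least 2-fold, only Taf2 had a second detected probe set.

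Genes that work with these factors but lie outside the naming rule were read as 2 lists. Of 16 detected genes of TBP regulators, TFIIIB, the snRNA activating complex and related factors, none was at least 2-fold higher, 3 (18.8%) were at least 2-fold lower, against 12.5% of all detected genes, and 12 (75%) had ratios below 0, against 60.2%. Their median was -0.45, and that of all detected genes was -0.16. The lowest was Taf1d, a further SL1 subunit gene and host of small nucleolar RNAs, with signals of 1526.5 and 235 on its brightest probe set (6.49-fold lower). Of its 7 detected probe sets, 6 were lower, and the dimmest went the other way (54.3, under the floor, and 201). Snapc2, of the snRNA activating complex, had 1790.4 and 537 (3.33-fold lower), and its second probe set was lower too (294 and 120.0). Gtf2ird2 had 353 and 45.5, the latter under the floor (at least 2.98-fold lower). In contrast, Rrn3, the initiation factor of RNA polymerase I, had 552 and 1092 (1.98-fold higher), and Dr1, a TBP repressor, was higher on both probe sets (770.4 and 1329, 499 and 915.5). Of 19 SAGA and ATAC subunit genes, all detected, Eny2 was 2.11-fold higher (1634 and 3446) and Kat14 2.01-fold lower (664 and 330.3), and the median was -0.06. Of their second probe sets, that of Eny2 was higher too (666 and 1364), and that of Kat14 hardly differed (356 and 322).

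**Figure D5:**
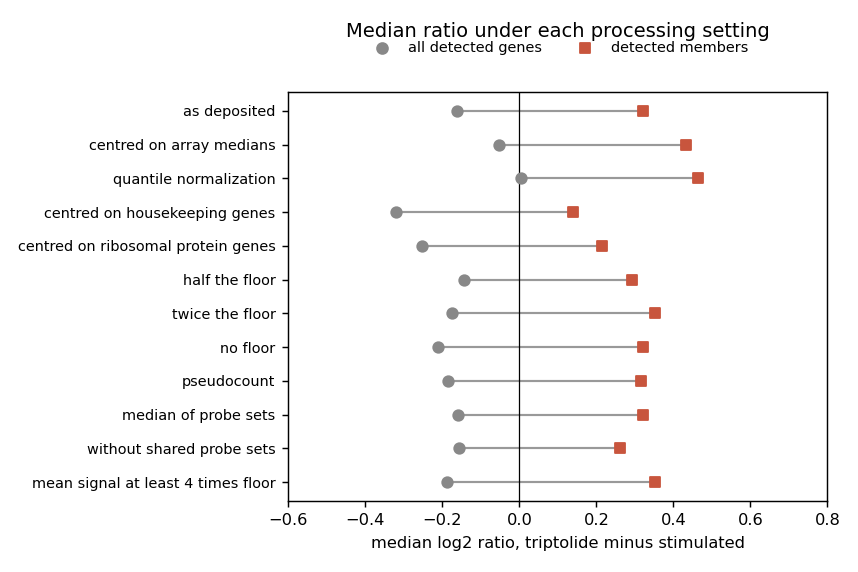
Median log2 ratio, triptolide minus stimulated, of all detected genes (grey circles) and of the detected genes of the set (red squares) as deposited and under 11 other processing settings. The squares lie between 0.14 and 0.46 and are to the right of the circles in every setting shown. Centring an array moves squares and circles together, so their order there was largely fixed in advance.

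Over all probe sets, the median signal was 95.5 on the stimulated and 87.6 on the triptolide array, and 44.9% and 42.2% lay above the floor. T cell markers were present on both arrays: 11 of 11 markers on the array were detected, with a summed signal of 56810 without and 38530 with triptolide, and 4 of them (Cd2, Cd28, Cd4 and Cd8a) were at least 2-fold lower, against 12.5% of all detected genes. Of the T cell receptor chains, Cd3e and Cd3g had log2 ratios of 0.46 and 0.18, Cd3d of -0.23 and Cd247 of -0.40. Zap70 was at -0.01, and Cd5 and Cd8b1 were at -0.47 and -0.61. Markers of other cells were partly detected, and sums are compared only between the arrays: B cells (6 of 7 detected, summed signals of 5123 without and 3233 with triptolide), myeloid cells (5 of 8, 5130 and 7139), natural killer cells (2 of 3, 742 and 1176) and platelets (2 of 4, 642 and 1318). The sums include markers under the floor. Most of the B cell sum was Ighm (3482 and 1805), and most of the myeloid sum was Ctss (4321 and 5971). Cd79a was the only detected B cell marker with a higher signal (349 and 674). Of the natural killer cell markers, Klrd1 was higher (489 and 966) and Klrk1 lower (246 and 183). At least 2-fold differences were seen in Blnk and Cd22 (lower) and in Lyz2, Gp5 and Itga2b (higher). The same rule called 12.5% of all detected genes lower and 5.63% higher. Blnk (306 and 84.1) and Lyz2 (72.2 and 259.5) each had 1 array under the floor, so each could differ in 1 direction only. Erythroid markers (0 of 2 detected), the B cell gene Pax5, the myeloid genes Cd14, Fcgr3 and Itgam, the natural killer cell gene Ncr1 and the platelet genes Pf4 and Ppbp lay under the floor on both arrays. The part of these shifts in the ratios above was not tested, and in bulk RNA fewer cells of a type and less RNA per cell cannot be told apart.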

How the data were processed

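Total RNA of each sample was hybridised as biotin-labelled target to an Affymetrix array, 1 array per group. The authors deposited 1 linear signal intensity per probe set, which the submitters' processing notes credit to MAS5; the sources used here give neither its version nor its scaling target. After trimming 2% at each end, the 100 probe sets listed first averaged 2000.0 on each array, and all 45037 averaged 383 and 339.8, so the scaling appears to rest on those 100.

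Gene names came from the platform annotation, with symbols updated by Entrez gene number from the RefSeq table of assembly GRCm38.p6 (34741 of 34945 probe sets with 1 symbol matched; 932 had several symbols and 9160 none). No gene of the set changed its symbol. The representative probe set had the highest mean log2 of the floored signals. The calculation used Python 3.11.15, numpy 2.4.6 and pandas 2.3.3 and was tested on simulated data. The number of arrays limits the precision.

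The genes, lists, motifs and rules were chosen with earlier results of these data known. Every gene of the set is named. Genes outside it are named from 2 lists where at least 2-fold. Rrn3, Dr1, further probe sets and the cell type markers were named after their values were seen. Alternatives were 4 scalings, floors at 0.5 and 2 times the value, no floor, a pseudocount of 50, 2 other choices of probe sets and 2 other filters.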

Additional observations from a re-analysis of the deposited data

How the results depend on the processing

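With 1 array per group no replicate could be left out, and no paired analysis was possible because each group holds 1 sample. As deposited, 4 genes of the set were at least 2-fold higher and 3 at least 2-fold lower, and their median (log2) was 0.32. Centring on array medians gave 1 lower gene and a median of 0.43, and quantile normalization gave 0 lower genes (6 higher) and a median of 0.46. Centring on housekeeping genes gave 2 higher and 5 lower genes and a median of 0.14, and centring on ribosomal protein genes 2 higher and 4 lower genes and a median of 0.21. The pseudocount gave 2 higher genes. Over all detected genes the counts moved as well, from 618 higher and 1370 lower of 10968 as deposited. They were 764 and 1064 of 10747 with array medians, and 867 and 900 of 10677 with quantile normalization. Centring on housekeeping genes gave 442 and 1901 of 11203, and on ribosomal protein genes 516 and 1688 of 11173. With the pseudocount they were 827 and 1519 of 10968. Counting all 39 genes, with undetected ones at 0, gave a median of 0.23, against 0.00 over all 18193 genes. Taf13 and Taf12 remained at least 2-fold higher in each of these settings, whereas Taf2, Taf6l, Taf1a, Taf1b and Gtf2e2 each fell within 2-fold in at least 1. Taf1a and Taf6l lay near the floor: at 2 times the floor their log2 ratios were -0.09 and 0.51. Without probe sets shared between transcripts Taf4 was at -0.92 and Gtf3c2 at 0.05, and 4 genes that rest on such probe sets alone (Tbp, Taf1b, Taf1c and Gtf3a) had no detected value. Genes that gained a call were Gtf2e1 and Gtf3c6 (higher, quantile normalization), Gtf3c4 (lower, housekeeping genes) and Gtf3c5 (lower, housekeeping and ribosomal protein genes). In all 12 settings the median of the set exceeded that of all genes in the same setting. Centring an array moves both medians together, so for the centred settings this order was largely fixed in advance. The gap was 0.48 as deposited and 0.46 to 0.48 after centring. A new scaling shifts every ratio of an array by 1 factor (or, for quantiles, by signal level); no other cause of these differences was tested.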
